A study of Mus musculus with 24 samples.

Results

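Total RNA of mouse Th1 effector cells was compared between 2 h of restimulation and rest (0 h), to describe which messenger RNAs had entered or left the pool by that early time. Each time was represented by 1 library, and both libraries carry the replicate number 1. The comparison covers the 6250 genes, of 9420 in the deposited table, whose FPKM averaged at least 5 over these libraries, and 3170 genes stood below that level. FPKM counts the fragments of a gene, divided by its length in kilobases and by the mapped fragments of the library, so every value is a share of its own library. Changes are given as the difference of log2(FPKM + 1), 2 h minus 0 h, which understates fold changes at low FPKM. A gene is called gained where it was at least 2-fold higher at 2 h on this scale (a difference of 1 or more) and lost where it was at least 2-fold lower. With 1 library at each time there is no replicate check and no test, and the values describe these libraries.

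The cells were CD4+ T cells of DO11.10 mice, taken with CD4 magnetic beads and differentiated to Th1 effectors, which secrete interferon gamma. DO11.10 mice carry a transgenic T cell receptor for an ovalbumin peptide, but here the receptor was engaged by antibodies. At 2 h the cells had been restimulated with soluble anti-CD3 at 1 µg/ml and anti-CD28 at 2.5 µg/ml, over plate-bound goat antibody to hamster immunoglobulin G. At 0 h the same kind of cells had received no restimulation. Libraries of the same study that the choice of genes did not use served as other readouts. They were total RNA at 0, 1 and 4 h of replicate 2, newly made RNA of replicate 1 (labelled for 1 h with 200 µM 4-thiouridine, 4sU), and ribosome-protected fragments (RP) of replicate 1. The labels do not say whether replicates 1 and 2 were separate animals or cultures.

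A T cell that meets its antigen again leaves a resting state held by transcription factors of the FOXO and KLF families, which keep up genes of quiescence and of homing to lymph nodes. Signals from the receptor switch on immediate early transcription factors without new protein, and then cytokines, survival genes and the machinery of growth. How fast a change in transcription shows in the pool of total RNA depends on how long each messenger lives, and messengers of signalling proteins, transcription factors and cytokines are known to be short-lived, while those of ribosomal proteins and of metabolic enzymes are long-lived.

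At 2 h, 325 genes were gained, which is 5.2% of the 6250, and 157 were lost, which is 2.51%. The other 5768 lay within 2-fold, and 4956 (79.3%) lay within 1.5-fold. The median difference was -0.02, and from the 5th to the 95th percentile the differences ran from -0.77 to 1.02. The gains reached further than the losses. A 4-fold difference was passed upward by 86 genes and downward by 9, an 8-fold one by 30 and 1, and a 16-fold one by 15 and 0. The extremes were Ccl3, a chemokine, at 7.21 and Pik3ip1, an inhibitor of PI3 kinase, at -3.18. A difference of the size counted here also occurs between libraries of the same time. Of the same genes, replicate 1 minus replicate 2 was at least 2-fold higher for 229 and lower for 49 at rest (278 in all, 4.45%), and higher for 158 and lower for 64 at 4 h (222 in all, 3.55%). The median absolute difference was 0.28 between 2 h and 0 h, against 0.29 between the replicates at rest and 0.26 between those at 4 h. At the limit of the choice of genes, Cdk10 averaged 5.00 FPKM (4.10 at 2 h and 5.90 at 0 h, difference -0.44) and entered, and Pfdn2 averaged just below 5 (6.04 at 2 h and 3.95 at 0 h, difference 0.51) and did not.

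**Figure D1:**
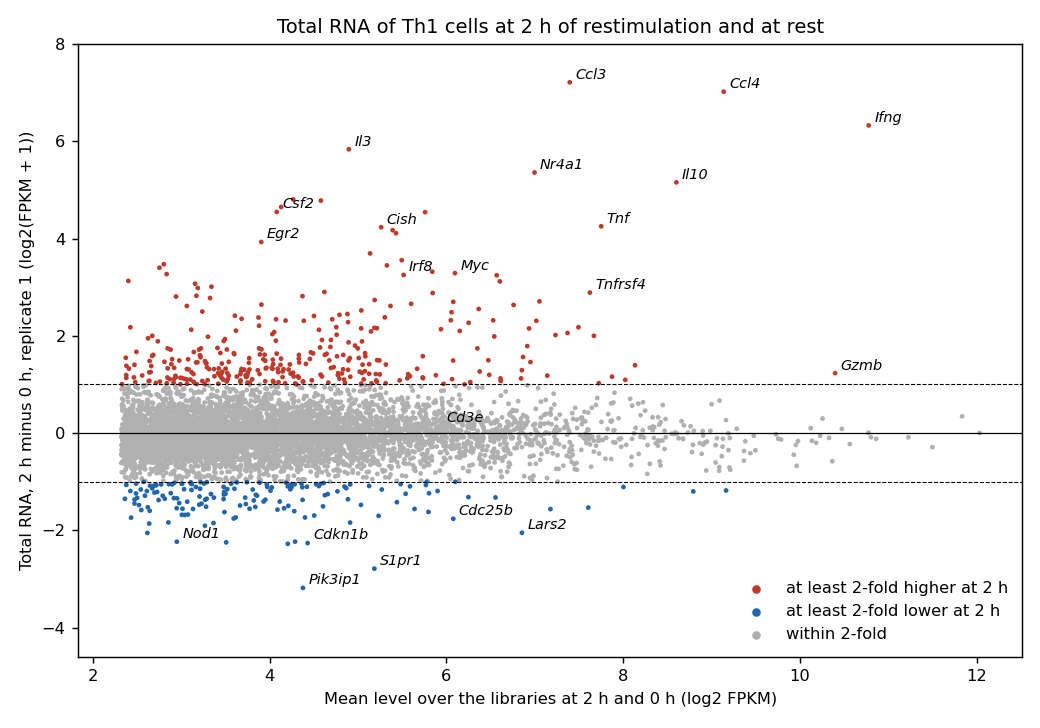
Difference of total RNA between 2 h and 0 h in replicate 1 (log2(FPKM + 1), vertical axis) against the mean level over both libraries (log2 FPKM, horizontal axis), 1 point for each of 6250 genes. The 325 gained genes (red) reach 7.21 and the 157 lost genes (blue) reach -3.18, with dashed lines at 2-fold.

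The gained genes held 9.63% of all FPKM in the table at 2 h, against 2.29% at 0 h, and the lost genes held 0.980% at 2 h, against 2.60% at 0 h. Ifng alone made up 1.39% at 2 h and 0.0173% at 0 h, and the 15 genes with the largest gains made up 2.76% at 2 h and 0.0464% at 0 h. The median gained gene stood at 26.9 FPKM at 2 h against 7.97 FPKM at rest, and the median lost gene at 6.30 FPKM at 2 h against 18.2 FPKM at rest. Of the gained genes, 100 were below 5 FPKM at rest and 10 were below 1 FPKM. Of the lost genes, 61 were below 5 FPKM at 2 h, and the lowest still stood at 1.77 FPKM. In bulk RNA a lower value cannot be told apart from fewer cells that hold the messenger, and a share of the library cannot be told apart from an amount per cell.

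Depth could be inferred from the steps between low values for only 1 of the 6 total RNA libraries, replicate 2 at rest, at 4.89 M reads, and it is unknown for both libraries compared. The FPKM of the table summed to 249424 at 2 h and 243758 at 0 h. The T cell markers Cd4 and Cd3e stood at 104.1 and 64.5 FPKM at 2 h, against 127.5 and 57.8 FPKM at 0 h. Markers of CD8 T cells were present in both libraries: 9 of 9 were in the table, and they summed to 2324 FPKM at 2 h against 1247 FPKM at rest, most of it Gzmb, which Th1 cells also express. Cd8a itself stood at 28.9 FPKM at 2 h against 23.5 FPKM at rest, and Gzma at 192.6 and 214.6 FPKM, while Gzma stood at 4.42 FPKM in replicate 2 at rest. The 5 of 9 dendritic cell markers in the table summed to 60.7 FPKM at 2 h against 78.8 FPKM at rest, the 5 of 8 B cell markers to 7.56 and 14.8 FPKM, the 2 of 9 macrophage and monocyte markers to 2.10 and 2.25 FPKM, and the 3 of 8 NK cell markers to 253.8 and 245.4 FPKM, including Gzma. None of the 5 erythroid markers was in the table. The part of these cells in the differences below was not tested.

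Cytokines and chemokines made the largest gains. Of the 17 members of this list among the 6250 genes, 15 were gained and 0 lost, with a median difference of 3.55, against -0.02 over all genes. Their summed level was 6910 FPKM at 2 h against 389.8 FPKM at rest, counting all 24 listed genes. Ifng, which encodes the defining cytokine of Th1 cells (chromosome 10, 118441046 to 118445892, plus strand), stood at 3470.0 FPKM at 2 h, against 42.3 FPKM at 0 h, a difference of 6.33. It stood at 7340.0 FPKM at 4 h in replicate 1, and at 25.03, 168.7 and 1814 FPKM at 0, 1 and 4 h in replicate 2. All stimulated libraries were thus above both resting libraries, and the level at 2 h in replicate 1 was above that at 4 h in replicate 2. Ccl3 and Ccl4, neighbouring chemokine genes on chromosome 11 that draw leukocytes, behaved alike. Ccl3 stood at 335.5 FPKM at 2 h against 1.27 FPKM at rest, a difference of 7.21, and Ccl4 at 1119 FPKM at 2 h against 7.63 FPKM at rest, a difference of 7.02. In replicate 2 at 0, 1 and 4 h, Ccl3 stood at 1.07, 9.58 and 144.9 FPKM and Ccl4 at 1.86, 18.9 and 191.8 FPKM, and no stimulated library overlapped a resting one. Ifng, Ccl3 and Ccl4 were chosen by the 2 h and 0 h libraries of replicate 1, so part of this order is fixed.

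Il3 and Csf2, a pair of growth factors for myeloid cells encoded side by side on chromosome 11, were nearly absent at rest. Il3 stood at 59.5 FPKM at 2 h against 0.06 FPKM at rest, and Csf2 at 33.4 FPKM at 2 h against 0.47 FPKM at rest. Both were listed at 0 in replicate 2 at rest, and reached 32.3 and 130.6 FPKM there at 4 h. Il10, a cytokine that restrains inflammation and that Th1 cells can make, stood at 757.2 FPKM at 2 h against 20.3 FPKM at rest. Replicate 2 held far less of it, with 2.49, 22.2 and 45.3 FPKM at 0, 1 and 4 h. The same held for Il21, a helper cytokine, at 104.8 FPKM at 2 h against 3.54 FPKM at rest, against 0.47, 3.75 and 3.70 FPKM at 0, 1 and 4 h in replicate 2. Tnf, the inflammatory cytokine, stood at 410.4 FPKM at 2 h against 20.6 FPKM at rest, a difference of 4.25, and in replicate 2 it was already at 118.9 FPKM at 1 h and at 93.0 FPKM at 4 h, against 9.72 FPKM at 0 h. Of the TNF family ligands, Lta (3.55), Tnfsf11 (3.47), Tnfsf14 (3.40), Cd40lg (2.52), Tnfsf9 (2.38) and Fasl (1.74) were gained, and Ltb, high at 352.7 FPKM at 2 h against 255.9 FPKM at rest, differed by 0.46. Ccl5, a chemokine stored by effector cells, differed by 0.38. The T cell growth factor Il2 did not reach the level required, at 5.97 FPKM at 2 h while it was listed at 0 at 0 h.

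Immediate early transcription factors were gained in 13 of 16 members, with 0 lost and a median difference of 2.55. The Nr4a receptors, nuclear receptors that mark recent antigen receptor signals, led the list. Nr4a1 stood at 250.4 FPKM at 2 h against 5.13 FPKM at rest (5.36), and Nr4a3 at 38.1 and 0.40 FPKM (4.80). The zinc finger factor Egr3 stood at 34.6 FPKM at 2 h against 0.42 FPKM at rest (4.65), Egr2 at 29.0 and 0.97 FPKM (3.93), and Egr1 at 14.2 and 1.17 FPKM (2.81). Of the AP-1 subunits, Fos differed by 2.78, at 18.3 FPKM at 2 h against 1.81 FPKM at rest, and Junb by 2.32, at 154.6 and 30.2 FPKM, while Jun stood at 8.24 and 7.40 FPKM. Several of these genes were lower late than early. In replicate 2, Fos stood at 2.95, 62.5 and 12.4 FPKM at 0, 1 and 4 h, Egr1 at 1.69, 39.5 and 9.59 FPKM, and Egr3 at 0.43, 27.1 and 8.42 FPKM. Newly made RNA of replicate 1 held 296.8 FPKM of Fos at 1 h and 39.0 FPKM at 2 h, and 187.9 and 27.1 FPKM of Egr1. The later and broader course was that of Myc, the regulator of growth, at 125.0 FPKM at 2 h against 11.9 FPKM at rest (3.29), and at 12.2, 29.9 and 124.8 FPKM at 0, 1 and 4 h in replicate 2. In the Myc network, 2 of 10 members were gained and 2 lost: its antagonist Mxd1 was gained with it (2.14), and the antagonists Mxd3 (-1.50) and Mxd4 (-1.35) were lost.

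**Figure D2:**
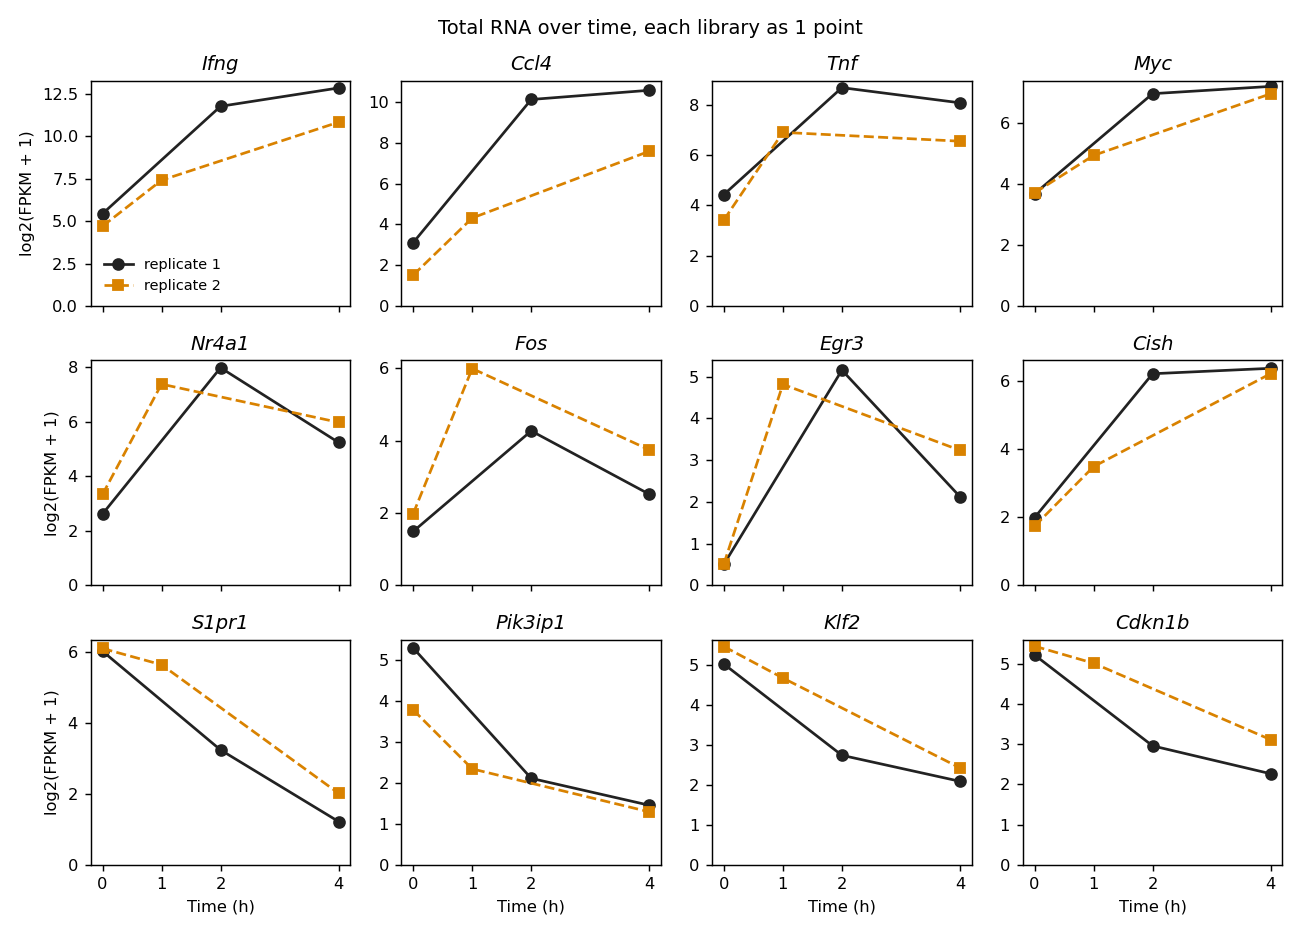
Total RNA of 12 genes over time (log2(FPKM + 1), vertical axis), with 1 point per library: 0, 2 and 4 h in replicate 1 (black circles) and 0, 1 and 4 h in replicate 2 (orange squares). Ifng, Ccl4, Myc and Cish keep climbing or hold to 4 h, Fos, Egr3 and Nr4a1 are lower at 4 h than at the earlier stimulated time, and the 4 genes of the bottom row decline in both replicates.

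Messengers of negative feedback inhibitors were also higher in the pool at 2 h. Of the receptor feedback inhibitors, 14 of 19 members were gained and 0 lost, with a median difference of 2.27. Rgs16 and Rgs1, which shorten signals of chemokine receptors, stood at 47.1 and 175.4 FPKM at 2 h, against 0.75 and 19.3 FPKM at 0 h. Cish, a SOCS family inhibitor of cytokine signals, stood at 73.8 FPKM at 2 h against 2.98 FPKM at rest (4.23), and at 2.35, 10.3 and 73.9 FPKM at 0, 1 and 4 h in replicate 2. The phosphatases of MAP kinases Dusp5 (2.71), Dusp4 (2.63), Dusp6 (2.31) and Dusp2 (2.27) were gained, as was the checkpoint receptor Pdcd1 (2.74), while the checkpoint receptor Ctla4 stood at 199.3 FPKM at 2 h against 190.5 FPKM at rest. Of the NF-kB subunits and targets, 16 of 19 were gained and 0 lost, with a median of 2.02. They included the inhibitors of the pathway Nfkbid (172.6 FPKM at 2 h against 17.3 FPKM at rest, 3.24), Nfkbie (2.16), Nfkbia (2.02) and Tnfaip3 (2.16), the subunits Rel (2.50), Nfkb2 (2.10), Relb (1.63) and Nfkb1 (1.27), and the survival gene Bcl2l1 (44.1 and 5.04 FPKM, 2.90). Rela, the subunit that is regulated mostly by its location, differed by 0.86. Bcl2l1 was also 1 of 3 gained members of the 11 of the Bcl2 family, with Bcl2a1d (2.45) and Bcl2a1b (2.12), whose near-identical copies may share reads, so their values are uncertain. The 1 lost member was Bbc3, which promotes cell death, at 3.30 FPKM at 2 h against 12.8 FPKM at rest (-1.68).

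Promoter sequence is shown for 2 gained genes of the NF-kB list, Rel and Nfkbie, and for 2 gained genes with a serum response element, Dusp5 and Srf, all chosen after their values were seen. Windows from 250 bases before to 50 after the start of transcription (RefSeq, GRCm38.p6) were matched for 259 of the 325 gained genes (79.7%), which is too few for a share, and single windows are shown as examples. Stretches of 60 bases upstream of the start, with the NF-kB motif in capitals for Rel (chr11:23771028-23771087, minus strand) and Nfkbie (chr17:45555568-45555627, plus strand) and the serum response element in capitals for Dusp5 (chr19:53529037-53529096, plus strand) and Srf (chr17:46556211-46556270, minus strand), read as follows. Srf, gained by 1.46, encodes the factor that binds the serum response element. This element was not confined to gained genes. It was also in 4 of 182 windows of lost genes (2.20%), among them Tcf7 and Lef1, against 84 of 6453 windows of all genes (1.30%). Both strands were searched, and a match is a run of letters and not a site shown to be bound.
Rel: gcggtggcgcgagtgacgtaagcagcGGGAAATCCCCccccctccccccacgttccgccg
Nfkbie: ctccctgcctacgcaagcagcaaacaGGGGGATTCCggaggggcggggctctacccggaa
Dusp5: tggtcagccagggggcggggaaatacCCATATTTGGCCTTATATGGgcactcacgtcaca
Srf: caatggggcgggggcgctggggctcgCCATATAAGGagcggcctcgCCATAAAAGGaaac

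Receptors on the cell surface did not all move alike. Of the costimulatory and activation receptors, 7 of 14 were gained and 0 lost, with a median of 0.91. The TNF receptors Tnfrsf4 (OX40) and Tnfrsf9 (4-1BB), which take up costimulation from antigen-presenting cells, stood at 348.3 and 113.8 FPKM at 2 h, against 46.2 and 19.5 FPKM at 0 h. Cd69, which holds activated cells in tissue, stood at 102.0 FPKM at 2 h against 13.0 FPKM at rest (2.88), and Il2ra, the high-affinity chain of the IL-2 receptor, at 175.0 and 58.5 FPKM (1.56). Cd28, the receptor that one of the antibodies engaged, stood at 106.5 FPKM at 2 h against 147.2 FPKM at rest (-0.46). Of the 22 genes of T cell receptor signalling, 3 were gained, 0 lost and the median was 0.24. The gained ones included the adaptor Lcp2 (187.7 FPKM at 2 h against 53.7 FPKM at rest, 1.79) and Bcl10 (1.21), while the receptor chains Cd3d, Cd3g and Cd3e differed by -0.21 to 0.16. In replicate 2, Lcp2 stood at 42.8, 27.5 and 154.0 FPKM at 0, 1 and 4 h, so it was lower at 1 h than at rest and higher at 4 h. The value at 1 h is from 1 library, in which 5.89% of all genes were at least 2-fold lower than at rest and 1.04% higher. Newly made Lcp2 RNA of replicate 1 stood at 184.35 FPKM at 1 h against 98.35 FPKM at rest.

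Among the Th1 regulators, 3 of 13 were gained and 0 lost, with a median of 0.18. The interferon regulatory factors Irf8 and Irf4, which act in effector differentiation, stood at 83.7 and 216.3 FPKM at 2 h, against 7.89 and 42.9 FPKM at 0 h. Tbx21, the master regulator of Th1 cells, stood at 100.0 FPKM at 2 h against 34.9 FPKM at rest (1.49). It had returned to 35.5 FPKM in replicate 1 at 4 h, and in replicate 2 it ran at 24.5, 18.7 and 26.1 FPKM at 0, 1 and 4 h, so of the 6 total RNA libraries it was high in the one at 2 h. Granzyme B (Gzmb), the protease of killer granules, stood at 1893 FPKM at 2 h against 805.3 FPKM at rest (1.23), and perforin (Prf1), which opens the target cell, at 45.2 and 14.9 FPKM (1.54). Both are also made by the CD8 T cells whose markers stood in these libraries, and Cd8a and Cd8b1 differed by 0.29 and -0.34. Of the interferon response genes, 3 of 12 were gained (Isg20, Gbp5 and Isg15, by 1.14 to 1.17), 0 were lost, and the median was -0.08.

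The losses were led by genes of quiescence and homing. Of the 22 genes of this list, 13 were lost and 0 gained, with a median difference of -1.04, against -0.02 over all genes. Against rest of replicate 2, 8 of these 13 were at least 2-fold lower. Of all 22 genes, 10 were at least 2-fold lower on that comparison and 2 at least 2-fold higher. It keeps the 2 h library by which the lost genes were chosen, so part of the 8 is fixed by the choice. Pik3ip1 (chromosome 11, 3330401 to 3342971, plus strand), a membrane protein that restrains PI3 kinase, stood at 3.32 FPKM at 2 h against 38.3 FPKM at rest, which is 8.68% of rest. In replicate 2 it stood at 12.8, 4.07 and 1.45 FPKM at 0, 1 and 4 h. The stimulated libraries were all below the resting ones, but the resting levels of the replicates themselves differed by 1.51 on the log2 scale. Pik3ip1 was chosen by the 2 h and 0 h libraries of replicate 1, so part of this order is fixed by the choice. S1pr1 (chromosome 3, 115710433 to 115715072, minus strand), the receptor by which T cells leave lymph nodes, stood at 8.46 FPKM at 2 h against 64.3 FPKM at rest (-2.79), and at 67.9, 49.1 and 3.05 FPKM at 0, 1 and 4 h in replicate 2. Its transcriptional activator Klf2 stood at 5.65 FPKM at 2 h against 31.3 FPKM at rest (-2.28), and at 42.7, 24.3 and 4.35 FPKM in replicate 2. For both genes the level at 1 h lay between rest and the later times. If the whole decline had been exponential from the start, the levels at 2 h would correspond to a halving every 34.0 min for Pik3ip1, 41.0 min for S1pr1 and 48.6 min for Klf2, as a share of the library. At 1 h in replicate 2, however, S1pr1 (-0.46) and Klf2 (-0.79) had fallen by less than a halving, while Pik3ip1 (-1.44) had fallen by more. A constant rate is thus not shown for S1pr1 and Klf2, 1 library at 1 h cannot show one for Pik3ip1, and these times are not measured lifetimes.

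Other lost members of the list were Tsc22d3, a glucocorticoid-induced inhibitor of activation (3.31 FPKM at 2 h against 19.5 FPKM at rest, -2.25), Txnip, which limits glucose uptake (99.6 and 289.9 FPKM, -1.53), the antiproliferative Tob1 (-1.44), the transcription factors Tcf7 (-1.38), Lef1 (-1.13) and Foxo3 (-1.02), the chemokine receptor Cxcr3 (-1.05) and the integrin Itga4 (-1.01). Some messengers of surface receptors moved less. Il7r, the receptor for a survival cytokine, stood at 96.3 FPKM at 2 h against 150.2 FPKM at rest (-0.64), and Ccr7, which guides cells into lymph nodes, at 24.6 FPKM at 2 h against 35.6 FPKM at rest (-0.52). Against the direction of the list, Slfn2, known to keep T cells quiescent, differed by 0.58. Of the 7 chemokine receptors, 1 was lost (Cxcr3), 0 were gained and the median was -0.51. Against rest of replicate 2 the median was 0.19 and Cxcr3 differed by -0.34, so it was not lost there.

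Genes that restrain growth or belong to the Wnt pathway were lost in 6 of 16 members and gained in 1, with a median of -0.54. Cdkn1b, the cell cycle inhibitor p27, stood at 6.78 FPKM at 2 h against 36.3 FPKM at rest (-2.26), and at 42.4, 31.4 and 7.66 FPKM at 0, 1 and 4 h in replicate 2. The atypical cyclin Ccng2, found in cells that leave the cycle, stood at 6.21 FPKM at 2 h against 32.9 FPKM at rest (-2.23), and at 28.3, 25.8 and 6.29 FPKM in replicate 2. At 1 h in replicate 2, Cdkn1b differed by -0.42 and Ccng2 by -0.13 from rest, and both were low at 4 h. Sesn1, a stress-responsive inhibitor of mTORC1 (-1.68), and Axin2, a Wnt target (-1.24), were also lost, and Id2, an inhibitor of E protein transcription factors, was gained (407.6 FPKM at 2 h against 154.4 FPKM at rest, 1.39). Outside the lists, the lost genes with the largest differences were the innate receptor Nod1 (-2.23), the sialic acid enzyme Cmah (-1.91), the repressor Hbp1 (-1.86), the lipid transfer protein Osbpl5 (-1.85, with resting levels of 16.7 FPKM in replicate 1 and 6.44 FPKM in replicate 2), the cell cycle phosphatase Cdc25b (30.2 and 104.9 FPKM, -1.76) and the cholesterol exporter Abcg1 (-1.76), with Mettl7a1 (-2.05) and Fam117a (-1.84).

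A FOXO motif (GTAAACA or ATAAACA, either strand) was in 22 of the 182 promoter windows of lost genes (12.1%), which covered 131 of the 157 genes (83.4%), against 326 of 6453 windows of all genes (5.05%). The NF-kB motif was in 7 of these 182 windows (3.85%), against 5.39% of all windows, and the cAMP response element TGACGTCA in 2 (1.10%), against 3.39%. The EGR motif GCGNGGGCG (N for any base) was in as many windows of lost genes as the FOXO motif, 22 of 182 (12.1%), against 10.2% of all windows. The FOXO motif was not confined to lost genes, and windows of the gained genes Junb and Mxd1 held it too. Windows of 1 gene can overlap, and the shares are given with no test. FOXO factors are moved out of the nucleus when PI3 kinase is active and are known to drive Bbc3. Their part in these losses was not tested. Stretches of 60 bases upstream of the start are shown for lost genes with the motif in capitals, for Hbp1 (chr12:31950361-31950420, minus strand), Txnip (chr3:96557810-96557869, plus strand), Bbc3 (chr7:16310068-16310127, plus strand, motif on the opposite strand) and Cmah (chr13:24414942-24415001, plus strand).
Hbp1: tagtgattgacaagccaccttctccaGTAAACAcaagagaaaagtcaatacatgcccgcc
Txnip: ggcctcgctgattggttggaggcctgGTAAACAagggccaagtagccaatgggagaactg
Bbc3: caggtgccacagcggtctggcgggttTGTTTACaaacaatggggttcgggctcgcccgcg
Cmah: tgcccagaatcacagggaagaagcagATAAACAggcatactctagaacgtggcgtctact

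The growth machinery had begun to move in part. Of the ribosome biogenesis factors, 20 of 43 were gained and 0 lost, with a median of 0.93. Against rest of replicate 2, 17 were at least 2-fold higher and 1 lower, and 16 were higher on both comparisons. Both comparisons use the same 2 h library, so part of this overlap is fixed. Ppan and Gnl3, nucleolar proteins of the large subunit pathway, stood at 38.8 and 58.0 FPKM at 2 h, against 6.50 and 12.9 FPKM at 0 h, and the assembly factors Nolc1 (1.74), Polr1b (1.67), Nop2 (1.61) and Tsr1 (1.61) were gained as well. In replicate 2, Ppan stood at 3.59, 6.43 and 41.7 FPKM and Gnl3 at 10.4, 14.2 and 79.2 FPKM at 0, 1 and 4 h. By contrast, the abundant nucleolar proteins Npm1 and Fbl stood at 198.5 and 39.4 FPKM at 2 h, against 188.4 and 35.2 FPKM at 0 h. The 22 cytosolic ribosomal proteins, which these factors assemble, had 0 gained and 0 lost members and a median of -0.07, with differences from -0.19 to 0.54. Their summed level was 12553 FPKM at 2 h against 13249 FPKM at rest. In newly made RNA of the same time their median was 0.98 and in RP it was 1.53, so the pool stayed level while both other readouts were higher. Rps18 and Rpl12, at the upper end, have pseudogene copies in the genome, and their counts are uncertain.

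Of the nutrient and metabolic genes few passed 2-fold, while 12 of 13 glycolysis genes, 15 of 17 amino acid and one-carbon genes and 13 of 17 polyamine and nucleotide genes lay above 0, against 2971 of the 6250 genes. Hk2, the inducible hexokinase, stood at 66.2 FPKM at 2 h against 4.19 FPKM at rest (3.69), and the glucose transporter Slc2a1 at 33.8 and 14.5 FPKM (1.17). They were 2 of 3 gained members of 13 glycolysis genes, whose median was 0.59, against -0.22 with rest of replicate 2 in place of that of replicate 1, and the third, the lactate exporter Slc16a3 (1.32), stood at 6.04 FPKM at rest in replicate 1 but 27.8 FPKM in replicate 2. Against rest of replicate 2, Slc2a1 differed by 0.068 and Slc16a3 by -0.71. Of the amino acid and one-carbon genes, 4 of 17 were gained (Shmt1, Slc7a1, Slc1a5 and Slc3a2, by 1.05 to 1.60), with 0 lost and a median of 0.32. Of the polyamine and nucleotide genes, 2 of 17 were gained, 0 lost and the median was 0.38, with spermidine synthase Srm at 30.8 FPKM at 2 h against 9.45 FPKM at rest. Cholesterol synthesis had 4 of 15 gained and 0 lost, with a median of 0.50, against -0.11 with rest of replicate 2. Cyp51, an enzyme of the pathway, stood at 23.2 FPKM at 2 h against 6.24 FPKM at rest, and Insig1, a brake on it, at 48.5 and 15.96 FPKM. In replicate 2 these genes stood at 17.0, 45.6 and 7.56 FPKM (Cyp51) and 12.7, 35.1 and 11.0 FPKM (Insig1) at 0, 1 and 4 h, and the list had a median of 0.77 at 1 h and -1.06 at 4 h, so within replicate 2 it was higher at 1 h and lower at 4 h than at rest. In replicate 1 at 4 h, Cyp51 stood at 15.6 FPKM and Insig1 at 37.2 FPKM, both still above rest.

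Of the chaperones, 2 of 14 were gained, 0 lost and the median was 0.42, led by Hspa5 of the endoplasmic reticulum at 324.4 FPKM at 2 h against 144.7 FPKM at rest. Of the 20 translation initiation factors 1 was gained (Eif1a, 52.5 and 13.5 FPKM) and 0 lost, with a median of 0.33. None of the 20 aminoacyl-tRNA synthetases (median 0.24), 20 proteasome subunits (0.17), 25 spliceosome genes (0.13), 22 subunits of oxidative phosphorylation (-0.05), 25 S phase genes (-0.05) or 23 mitosis genes (-0.28) was gained or lost. Of the mitosis genes, 2 of 23 lay above 0, against 2971 of the 6250 genes, with Plk1, a mitotic kinase, at 16.3 FPKM at 2 h against 29.96 FPKM at rest (-0.84). Of the 20 mRNA decay factors, 1 was gained and 2 lost, with a median of 0.13. Zc3h12a, the RNase Regnase-1 that cuts cytokine messengers, was gained (15.4 and 5.98 FPKM, 1.23). Zfp36l2, which binds AU-rich elements, stood at 17.2 FPKM at 2 h against 58.1 FPKM at rest (-1.70), and it was lost together with Tob1.

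**Figure D3:**
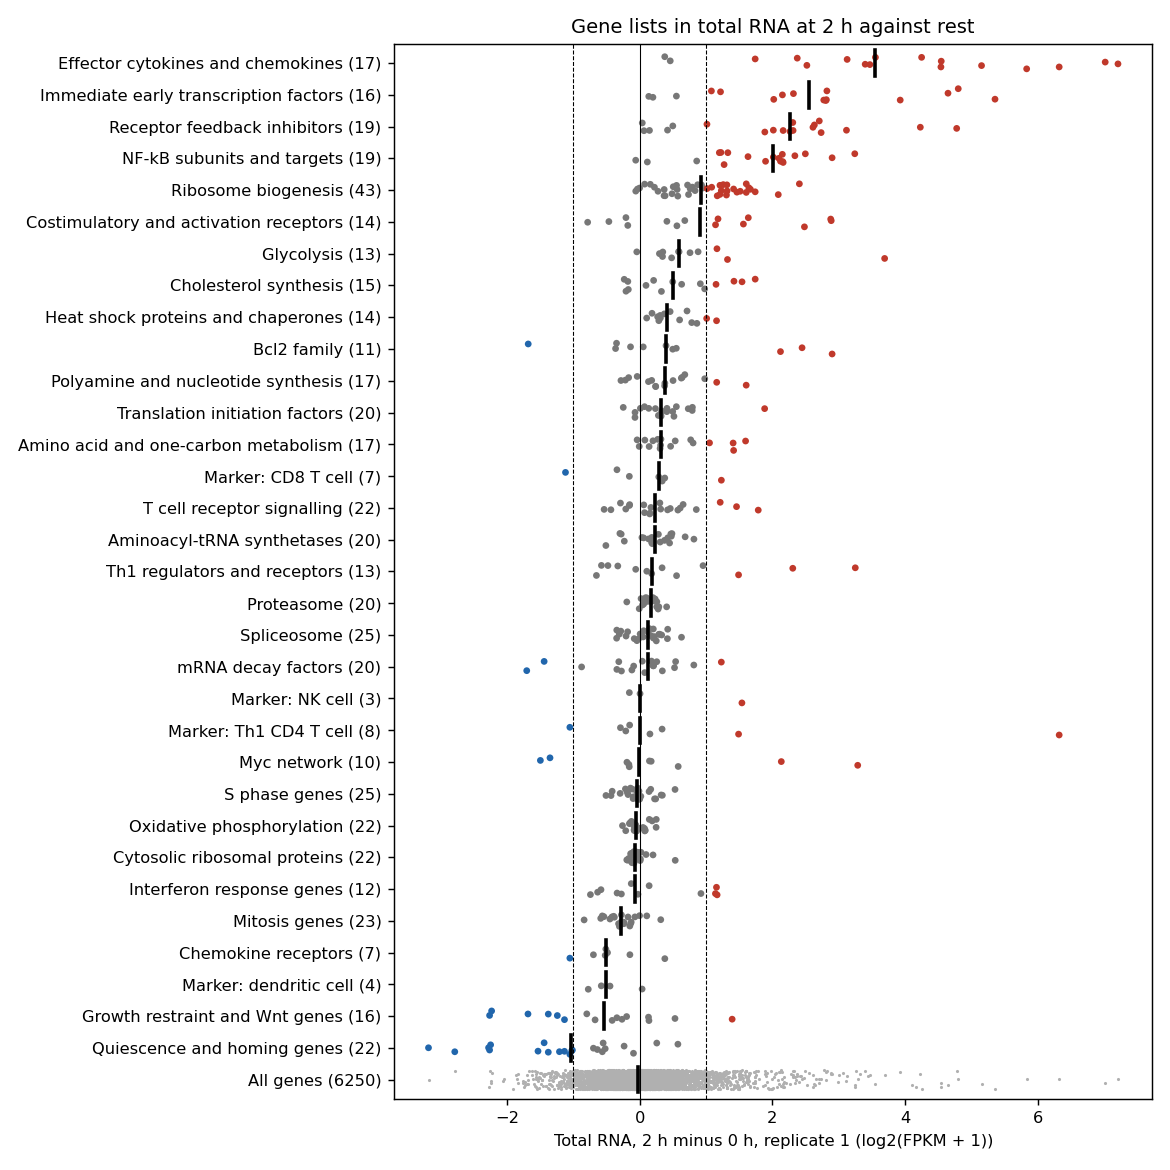
Difference of total RNA between 2 h and 0 h (log2(FPKM + 1), horizontal axis) for each member of the gene lists, ordered by median from high to low, with all genes in the bottom row. Black bars are medians, numbers in brackets count genes, and the medians run from 3.55 for effector cytokines and chemokines to -1.04 for quiescence and homing genes.

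The same genes were followed in libraries that played no part in their choice. In newly made RNA of replicate 1, 2 h minus 0 h was above 0 for 325 of the 325 gained genes and at least 2-fold higher for 301 (8.82% of all genes were), with a median of 1.72. It was below 0 for 157 of the 157 lost genes and at least 2-fold lower for 148 (7.31% of all genes were), with a median of -1.76. In RP, 288 of the gained genes were at least 2-fold higher (8.0% of all genes) and 121 of the lost genes at least 2-fold lower (6.54% of all genes), with medians of 1.68 and -1.42. These libraries carry the same replicate number as the libraries compared. Over the 6250 genes, the difference of total RNA correlated with that of newly made RNA with Pearson r = 0.89 (Spearman rho = 0.83) and with that of RP with r = 0.83 (rho = 0.77), across genes, which are not independent.

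In total RNA of replicate 2, which shares no library, 226 of the 325 gained genes (69.5%) were at least 2-fold higher at 4 h than at rest, where 7.04% of all genes were, and 312 were above 0. Of the 157 lost genes, 104 (66.2%) were at least 2-fold lower at 4 h, where 6.1% of all genes were, and 152 were below 0. At 1 h in replicate 2, 272 of the gained genes were above 0 (83.7%, against 49.5% of all genes) and 56 were at least 2-fold higher (17.2%, against 1.04% of all genes), with a median of 0.49. Of the lost genes, 139 were below 0 at 1 h (88.5%, against 50.3% of all genes) and 25 were at least 2-fold lower (15.9%, against 5.89% of all genes), with a median of -0.37. Resting levels differed between the replicates in a way that bears on the lost genes. They were higher at rest in replicate 1 than in replicate 2 by a median of 0.52, in 129 of 157 genes, against a median of 0.13 over all genes and 0.15 over the gained genes. The lost genes were chosen for a high value in that resting library of replicate 1, so part of this is fixed by the choice. The resting library of replicate 2 was also put in place of that of replicate 1. On that comparison 275 of the 325 gained genes were still at least 2-fold higher at 2 h, and 59 of the 157 lost genes were at least 2-fold lower. It keeps the 2 h library by which these genes were chosen, so part of both counts is fixed by the choice. The counts over all genes with this resting library are given below with the other settings. Of the genes named here as lost, Lars2 (-0.45), Osbpl5 (-0.60), Txnip (-0.88), Mxd3 (-0.41), Mxd4 (-0.90), Axin2 (-0.39), Foxo3 (-0.83), Itga4 (-0.52), Cxcr3 and Klrd1 lay within 2-fold on that comparison. Of those named as gained, so did Cyp51 (0.43), Fasl (0.20), Il2ra (0.91), Slc3a2 (0.59), Slc2a1 and Slc16a3.

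**Figure D4:**
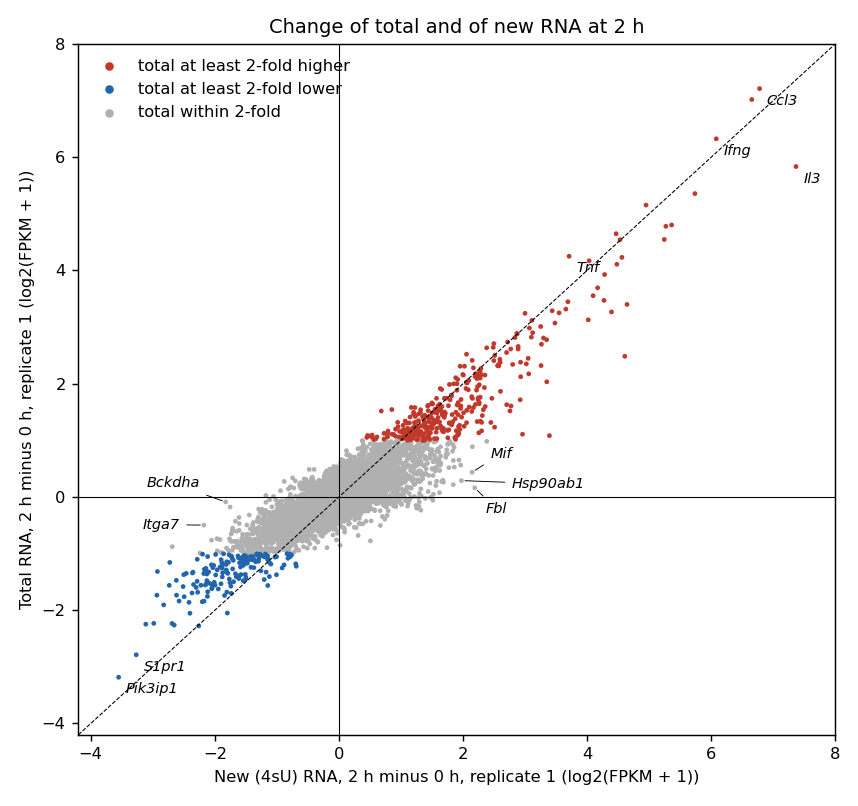
Difference of total RNA (vertical axis) against difference of newly made RNA (horizontal axis), both 2 h minus 0 h in replicate 1 on the log2(FPKM + 1) scale, for 6250 genes. The dashed diagonal marks equal differences; the 325 gained genes (red) all lie to the right of 0, the 157 lost genes (blue) all to the left, and Fbl, Mif and Hsp90ab1 lie near 0 in total RNA at about 2 in newly made RNA.

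The pool did not follow every change in transcription. Of 551 genes with newly made RNA at least 2-fold higher at 2 h, 301 were gained in total RNA, and 103 lay within 0.5 of no change. Of 457 genes with newly made RNA at least 2-fold lower, 148 were lost and 78 lay within 0.5 of no change. Examples are named here after their values were seen. Fbl, a methyltransferase of ribosomal RNA, stood at 42.7 FPKM at 2 h against 8.58 FPKM at rest in newly made RNA, and at 39.4 and 35.2 FPKM in total RNA. The cytokine Mif stood at 92.1 and 20.02 FPKM in newly made RNA and 217.7 and 160.5 FPKM in total RNA, and the chaperone Hsp90ab1 at 324.1 and 81.8 FPKM in newly made RNA and 392.7 and 321.2 FPKM in total RNA. The checkpoint receptor Lag3 was of the same kind, at 28.5 and 7.22 FPKM in newly made RNA and 43.7 and 37.4 FPKM in total RNA. In the other direction, the integrin chain Itga7 stood at 3.38 FPKM at 2 h against 18.8 FPKM at rest in newly made RNA, and at 9.39 and 13.7 FPKM in total RNA. A few genes were ahead of their newly made RNA. Insig1 differed by 1.54 in total and 0.85 in newly made RNA, Btg3, an antiproliferative factor, by 1.52 and 0.68, and Tnf by 4.25 and 3.71. Newly made Tnf RNA had stood at 2804 FPKM at 1 h, against 1185 FPKM at 2 h.

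The ratio of newly made to total RNA at rest, taken from replicate 2, served as a measure of turnover that shares no library with the comparison, and the genes were divided by it into 4 bins of nearly equal size. From the lowest to the highest bin, the gained genes numbered 35, 56, 88 and 146 (2.24%, 3.59%, 5.63% and 9.34% of the bin) and the lost genes 9, 15, 40 and 93 (0.576%, 0.960%, 2.56% and 5.95%). The median ratio on the log2 scale was 0.94 for gained genes, 1.16 for lost genes and 0.49 for all genes. Among genes whose newly made RNA was at least 2-fold lower at 2 h, total RNA was lost in 7 of 51, 15 of 86, 38 of 147 and 88 of 173 from the lowest to the highest bin (13.7%, 17.4%, 25.9% and 50.9%). Among genes whose newly made RNA was at least 2-fold higher, total RNA was gained in 33 of 194, 52 of 93, 78 of 106 and 138 of 158 (17.0%, 55.9%, 73.6% and 87.3%). By list, the median ratio was -2.53 for ribosomal proteins, -1.24 for oxidative phosphorylation, -0.81 for the proteasome, 1.31 for quiescence and homing genes and 1.60 for immediate early factors. It was -0.04 for ribosome biogenesis, of which 20 of 43 were gained, 0.95 for mRNA decay factors, of which 1 was gained and 2 lost of 20, and 1.23 for chemokine receptors, of which 1 of 7 was lost. The bins also differed in level, with a median of 27.4 FPKM in the lowest and 9.20 FPKM in the highest at rest in replicate 2, and the part of the level in these shares was not tested.

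**Figure D5:**
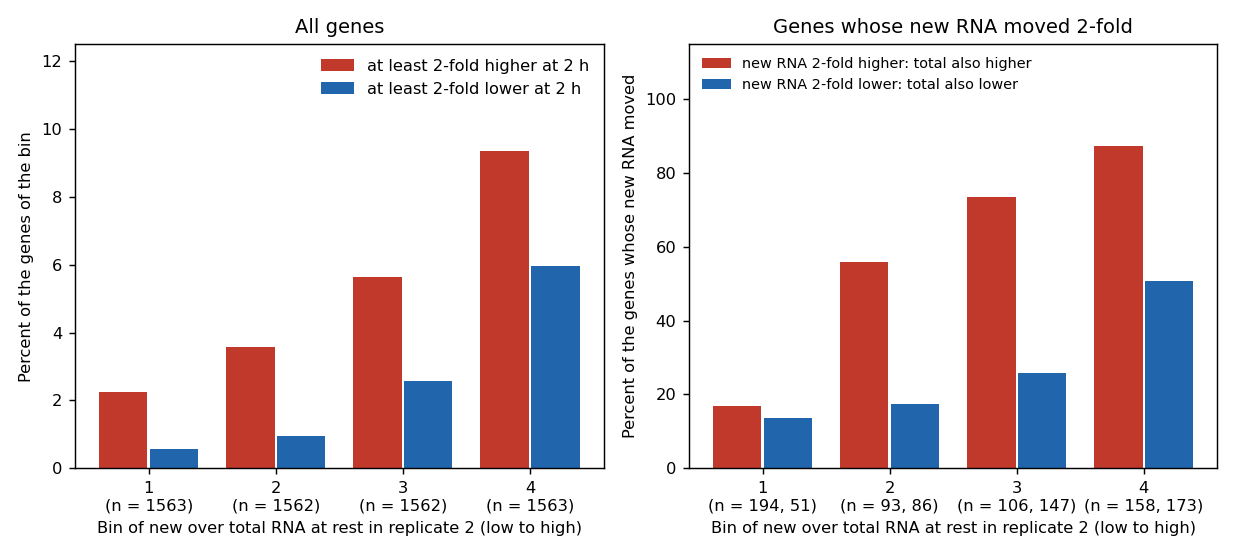
Left, percent of genes gained (red) and lost (blue) in total RNA at 2 h by bin of the ratio of newly made to total RNA at rest in replicate 2, with the number of genes below each bin. Right, among genes whose newly made RNA moved at least 2-fold, the percent whose total RNA moved at least 2-fold the same way; the shares run from 17.0% to 87.3% for higher and from 13.7% to 50.9% for lower genes.

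Elements in the 3′ untranslated region are known to set the lifetime of many cytokine messengers. The nonamer TTATTTATT, the core of an AU-rich element, was in the 3′ untranslated region (GENCODE M21, 1 transcript a gene) of 45 of 319 gained genes (14.1%), 10 of 157 lost genes (6.37%) and 385 of 6175 genes in all (6.23%). Long regions hold it more often, and by length the shares for gained, lost and all genes were 7.50%, 0% and 1.64% under 500 bases, 14.2%, 1.56% and 5.17% from 500 to under 1500 bases, and 19.4%, 14.1% and 12.0% from 1500 bases up. Gained genes had a median of 999 bases there, lost genes 1199 and all genes 892. Genes with 3 exons or fewer made up 19.7% of the gained, 17.2% of the lost and 10.8% of all genes. Stretches of 30 bases from GRCm38 are shown in the sense of the messenger, with the nonamer, also where copies overlap, in capitals, for Csf2 (chr11:54247324-54247353, minus strand), Tnf (chr17:35199681-35199710, minus strand) and Cish (chr9:107301377-107301406, plus strand). Ifng, Ccl3, Ccl4 and Il10 held no exact copy, which says only that these letters are not in that region.
Csf2: aaatatTTATTTATTTATTTATTTATTttt
Tnf: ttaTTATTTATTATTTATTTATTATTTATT
Cish: tatacagtatTTATTTATTTATTctccttg

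Of the 157 lost genes, 5 were above 0 at 4 h in replicate 2, and 1 of them, Lars2, was at least 2-fold higher (2.66). Lars2, the mitochondrial leucyl-tRNA synthetase, stood at 44.4 FPKM at 2 h against 187.1 FPKM at rest, a difference of -2.05, and at 3.62 FPKM at 4 h in replicate 1. In replicate 2 it stood at 60.9, 77.5 and 389.5 FPKM at 0, 1 and 4 h, and newly made RNA of replicate 1 held 2.13 FPKM at 2 h against 9.89 FPKM at rest. Its decline in total RNA was thus seen in replicate 1 and not in replicate 2. Newly made RNA of replicate 1 held 29.6 FPKM at 1 h, and RP held 4.59 FPKM at 2 h against 6.05 FPKM at rest.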

How the data were processed

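Per the labels' protocols, ribosomal RNA was removed from total and 4sU RNA before stranded library preparation, and ribosome footprints came from a commercial kit. The authors deposited FPKM with 2 decimals for 9420 genes in 24 libraries; the counting used GRCm38 and featureCounts (Subread 1.4.6-p3), per the submitters' processing notes. The sources used here do not name the aligner, the annotation, the gene lengths, the strand setting or how the genes were selected. Total RNA at 2 h and 0 h of replicate 1 was compared as log2(FPKM + 1) in Python 3.11.15 (pandas 2.3.3, numpy 2.4.6), over genes with a mean of at least 5 FPKM, and the counting was tested on simulated data. With 1 library at each time there was no test. Symbols were matched for 9412 genes and not for 8.

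Genes, lists (35, with 618 symbols, 513 among the 6250 genes) and the comparison were chosen with earlier results of these data known. Named genes were the 15 with the largest difference each way, leaving out predicted gene models, the 2 of each list with the largest difference, and 20 followed genes (90 in all). List members named beyond these were chosen after their values were seen. Alternatives were other pseudocounts, filters, scalings, fold limits and resting libraries. Values of a few genes are left out of the text.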

Additional observations from a re-analysis of the deposited data

Results flagged for a closer look

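Lars2 and Cyp51 moved in opposite directions in the replicates of total RNA between 4 h and 0 h, with 1 library at each time, and the difference between the replicates was not tested. Lars2 differed by -5.35 in replicate 1 and by 2.66 in replicate 2. Cyp51 differed by 1.20 in replicate 1 and by -1.07 in replicate 2. The values at 4 h of replicate 1 share the resting library with the comparison of 2 h and rest.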

How the results depend on the processing

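No paired analysis was possible because each time had 1 library, both with the same replicate number, and the values come from no test. For the same reason no replicate could be left out. Against rest of replicate 2 the genes at least 2-fold higher numbered 526 of 6163, those lower 168, and the median of all genes was 0.084. Against rest of both replicates the lower genes numbered 102 (403 higher). A pseudocount of 5 gave 212 higher and 65 lower genes, and a limit of 1.5-fold gave 684 higher and 610 lower. A mean of at least 10 FPKM gave 92 lower and 243 higher, but of only 4203 genes, so these counts also fall with the number of genes. The counts stayed within 1.5 times with a pseudocount of 0.1 (360 and 200), median-of-ratios scaling (359 and 127, with a shift of 0.07) and the same sum (308 and 171). They also did with a mean of at least 1 FPKM (402 and 224 of 9141 genes) and no filter (408 and 224 of 9420). Of the named genes that were gained or lost, 2 changed sign, both against rest of replicate 2: Slc16a3 at -0.71 and Klrd1 at 0.068. Of those within 2-fold, 5 changed sign there (Gzma at 5.16, Cd74 at 2.32, Pold1 at 0.073, Atp5a1 at 0.11 and Cd3e at -0.56), and 4 against rest of both replicates. List medians changed sign 22 times over these settings, 10 of them against rest of replicate 2. Of the values of named genes, a further 98 moved by more than the spread between replicates and 688 did not, and of the list medians 33 moved and 255 did not. The unknown depth of both libraries leaves the counting error of low values unknown.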

Other observations

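Of the 3170 genes below the level of 5 FPKM, 83 were at least 2-fold higher and 67 at least 2-fold lower at 2 h. The largest differences among the higher ones, chosen by size, were in further secreted factors and early regulators. The type 2 cytokine Il13 stood at 9.71 FPKM at 2 h against 0.09 FPKM at rest, and at 0.34, 0.90 and 16.1 FPKM at 0, 1 and 4 h in replicate 2. Nr4a2, the third of its receptor family, stood at 7.73 FPKM at 2 h against 0.05 FPKM at rest, and at 0.35, 9.95 and 3.29 FPKM in replicate 2, higher at 1 h than at 4 h like Nr4a1. The chemokine Ccl1 stood at 6.66 FPKM at 2 h and was listed at 0 at 0 h. The stress factor Atf3 (5.12 and 0.09 FPKM), the growth factor Pdgfb (6.25 and 0.28 FPKM) and the cytokine Lif (6.93 and 0.51 FPKM) were also higher at 2 h. The largest differences downward were Rflnb (0.83 FPKM at 2 h against 5.74 FPKM at rest) and Acss1, a mitochondrial acetyl-CoA synthetase (1.00 and 6.05 FPKM). Both stood lower at rest in replicate 2 than at rest in replicate 1, at 2.73 and 2.67 FPKM, and at 1.04 and 0.79 FPKM in replicate 2 at 4 h.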
